A study of Rattus norvegicus with 2 samples.

Results

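The genes described are 9 that carry the autonomic control of the heart: the acetylcholine receptor genes Chrm2, Chrm3 and Chrna7, the adrenergic receptor genes Adrb1, Adra1a and Adra1b, the G protein genes Gnai2 and Gnas, and Rgs4. Their peaks were taken as all peaks, of any class, to which the deposited annotation gives 1 of these names. This gave 17 of the 28706 peaks in the list, on 6 chromosomes and at 6 of the 9 genes. The peaks come from a chromatin immunoprecipitation and sequencing (ChIP-seq) library of myocardium from male Wistar rats in which a wire was tied to the abdominal aorta above the renal arteries, so that the heart pumps against a narrowed vessel. The labels give the antibody as a catalogue product, and its target was taken to be lactylated lysine 18 of histone H3 (H3K18la) from the series title. An input library of the same model carries the same number, 3, and has no values here. How many rats gave the chromatin, and whether any received vagal stimulation, is not given in the sources used here. With 1 ChIP library there is no replicate error and no test between groups, and every comparison below describes that library.

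As background, the vagus nerve releases acetylcholine, which acts on the heart mainly through the M2 muscarinic receptor encoded by Chrm2. That receptor engages inhibitory G proteins, which lower cyclic AMP and open a potassium channel, and the heart slows. Sympathetic nerves release noradrenaline, which acts through the β1 receptor and the stimulatory G protein to raise cyclic AMP, and through α1 receptors and Gq proteins in hypertrophic growth. H3K18la is a histone modification derived from lactate, and it has been described at promoters and enhancers of active genes.

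The start sites of the members that had both a peak and an entry in the RefSeq promoter table are shown as description. Whether the mark was called at these sequences was not examined. Entries were found for 7 of the 9 members. Each sequence is the stretch of 250 bases before a RefSeq start site of build GRCr8, 5′ to 3′ on the gene's strand. Capitals mark matches, on either strand, to 4 motifs, none of which overlaps another in the windows shown. The GC box was searched as GGGCGG and the CCAAT box by the letters of its name. The TATA box was searched as TATAAA. The cyclic AMP response element, a palindrome that the factor CREB binds, was searched as TGACGTCA. GRCr8 positions are not those of the peaks, which are in build rn6.
Chrm2 (chr4:65982200-65982449, + strand): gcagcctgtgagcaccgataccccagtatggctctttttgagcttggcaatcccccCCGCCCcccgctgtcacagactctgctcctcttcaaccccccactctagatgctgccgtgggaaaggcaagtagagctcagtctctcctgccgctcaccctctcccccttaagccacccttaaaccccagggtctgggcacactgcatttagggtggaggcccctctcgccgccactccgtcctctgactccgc
Adrb1 (chr1:265776853-265777102, + strand): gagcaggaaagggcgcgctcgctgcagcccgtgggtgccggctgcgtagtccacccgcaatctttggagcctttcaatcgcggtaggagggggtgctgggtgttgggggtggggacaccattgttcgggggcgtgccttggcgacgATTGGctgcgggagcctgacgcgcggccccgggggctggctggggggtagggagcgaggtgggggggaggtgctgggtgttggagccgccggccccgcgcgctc
Gnas window 1 (chr3:183489398-183489647, + strand): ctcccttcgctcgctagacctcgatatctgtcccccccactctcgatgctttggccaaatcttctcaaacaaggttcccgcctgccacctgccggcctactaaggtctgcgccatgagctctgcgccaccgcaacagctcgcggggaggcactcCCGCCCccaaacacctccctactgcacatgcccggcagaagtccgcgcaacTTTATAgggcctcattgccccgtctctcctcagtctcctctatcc
Gnas window 2 (chr3:183502993-183503242, + strand): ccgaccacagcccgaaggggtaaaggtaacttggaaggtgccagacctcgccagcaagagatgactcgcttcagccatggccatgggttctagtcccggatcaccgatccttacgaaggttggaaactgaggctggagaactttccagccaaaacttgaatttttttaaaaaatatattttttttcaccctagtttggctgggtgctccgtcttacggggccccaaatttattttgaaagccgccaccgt
Gnas window 3 (chr3:183537089-183537338, + strand): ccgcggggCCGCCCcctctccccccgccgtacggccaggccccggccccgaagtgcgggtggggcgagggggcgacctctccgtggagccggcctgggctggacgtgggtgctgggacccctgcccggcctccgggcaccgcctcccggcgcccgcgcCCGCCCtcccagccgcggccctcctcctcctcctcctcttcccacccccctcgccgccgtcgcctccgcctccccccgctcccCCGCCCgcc
Rgs4 (chr13:84475885-84476134, - strand): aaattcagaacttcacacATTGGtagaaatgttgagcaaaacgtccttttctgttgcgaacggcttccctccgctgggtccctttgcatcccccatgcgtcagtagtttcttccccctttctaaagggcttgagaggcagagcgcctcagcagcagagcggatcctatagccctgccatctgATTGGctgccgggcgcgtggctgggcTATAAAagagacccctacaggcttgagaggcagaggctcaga

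The window before the Chrm2 start has 1 GC box, beginning 194 bases upstream, and a GC content of 62.0%. Adrb1 has 1 CCAAT box, 104 bases upstream, and 72.0% GC. Gnas has 3 windows, since its locus uses several first exons. Window 1, at 61.2% GC, has a GC box and a TATA match, window 2 has no match at 49.2% GC, and window 3 has 3 GC boxes at 83.2% GC. Rgs4 has a pair of CCAAT matches and a TATA box 42 bases upstream, at 54.4% GC. Over all 33469 windows of the table, 30.5% hold a GC box, 34.0% a CCAAT box, 12.9% a TATA box and 1.59% a cyclic AMP response element, which none of the member windows holds. The median GC content of all windows is 51.2%, so 8 of the 9 member windows (7 genes) lie above it. A match is a description of these letters and not a binding site.

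Any peak was called at 6 of the 9 members (66.7%), where 26.5% of the 23154 protein-coding genes of the gene table have one. That table is of GRCr8 and its symbols were matched to the names given in rn6. A gene named otherwise in rn6 counts as having no peak, which can lower each share of all genes given here. A peak of the promoter class was called at 1 of the 9 (11.1%), Gnas, which is close to the 9.68% of all protein-coding genes. The members are few and were chosen with results of this list known, so neither share stands for a wider group of genes. Fold enrichment below is the authors' value for each peak, its signal over the caller's local background. Over the 17 peaks the median was 4.32-fold (range 3.05 to 7.08), against 4.13-fold over the other 28689 peaks (quartiles 3.62 and 4.79). The median width was 310 bp over the member peaks and 375 bp over the others. The median −log10 q was 4.21 at members and 3.89 elsewhere. Of the member peaks, 11 (64.7%) lay in introns, 5 (29.4%) between genes and 1 (5.88%) at a promoter, against 43.8%, 41.1% and 9.78% of the other peaks. The centre lay downstream of the transcription start site (TSS) in 15 of 17 (88.2%), against 56.8% of the other peaks, and Gnai2 alone gave 6 of these 15.

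**Figure D1:**
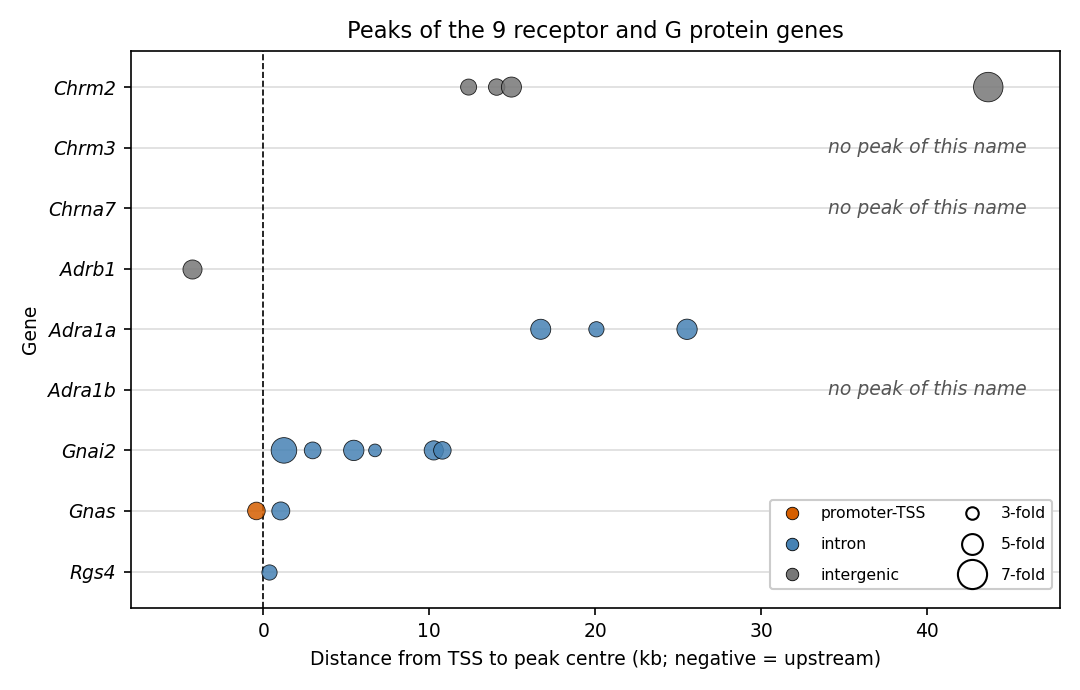
Distance from the TSS to the centre of each member peak (kb, x axis) for each gene (y axis), with circle area growing with the square of fold enrichment and colour giving the class. The Gnas and Rgs4 peaks and the strongest Gnai2 peak lie within 1.3 kb of the TSS, the peaks of Chrm2 and Adra1a lie at least 12.4 kb downstream, and 3 genes have no peak of their name.

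Among the acetylcholine receptors, Chrm2 had 4 peaks, all downstream of its TSS and all outside every annotated transcript, and Chrm3 and Chrna7 had none. The strongest Chrm2 peak, at 7.08-fold, lay 43.7 kb from the TSS (chromosome 4, 64132415 to 64132768, summit at 64132657). It ranked 576 in the whole list and 235 of the 11803 intergenic peaks, within the top 1.99% of that class. Its width of 354 bp was ordinary, at percentile 46.5 of the list, and its −log10 q was 8.67. The other 3 stood together nearer the gene. They had 3.85-fold at 12.4 kb (64101106 to 64101444), 3.94-fold at 14.1 kb (64102412 to 64103518) and 4.81-fold at 15.0 kb (64103738 to 64103973), with gaps of 967 and 219 bp between them. The middle one was the widest Chrm2 peak at 1107 bp. A stretch of 28.4 kb with no peak parted this group from the strong peak, and 108 kb without a peak followed it, up to a peak of Ptn. All 4 Chrm2 peaks together covered 2036 bp. At least 4 peaks were assigned to 2 of the 9 members, Chrm2 and Gnai2, and to 6.68% of all protein-coding genes.

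On the other side, no peak was called for 777 kb from the first Chrm2 peak, that at 12.4 kb. The peak at the far end of that stretch carries the name of the microRNA gene Mir490. In the gene table of GRCr8 Mir490 lies inside Chrm2, and it is the 1 gene inside a member that has peaks of its own name. The Mir490 peaks were intergenic, 4.07-fold at 35.1 kb upstream of Mir490 (chromosome 4, 63307565 to 63308055) and 3.70-fold at 19.0 kb upstream (63323834 to 63324033). Both were weaker than 2 of the 4 Chrm2 peaks, and the one of 4.07-fold was stronger than the other 2. In the rn6 annotation they lay outside every transcript and upstream of the Chrm2 TSS, at 64088900 on the + strand. Whether that TSS is the RefSeq start of Chrm2 shown above was not examined, because the builds differ. The Mir490 peaks were looked at after the member values were seen.

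Chrm3 encodes the M3 muscarinic receptor, which couples to Gq, and Chrna7 a nicotinic receptor subunit known for the vagal restraint of inflammation. No peak carries either name. The gene table's neighbours of Chrm3 are Zp4, without a peak, and Zmynd11, with a single intergenic peak of 5.20-fold 34.3 kb upstream of its TSS (chromosome 17, 63913292 to 63913700). On one side of that peak no further peak was called for 2208 kb. Of the neighbours of Chrna7, Potefam2 has no peak and Otud7a has 1 intron peak of 5.68-fold (chromosome 1, 124649513 to 124650510), with 561 kb free of peaks on one side. Where Chrm3 and Chrna7 lie in rn6 relative to these stretches was not examined. Absence of a peak means that none of that name was called at this threshold and at a depth that is unknown here. A peak inside such a gene could carry another name.

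Among the adrenergic receptors, Adra1a had 3 peaks, Adrb1 had 1 and Adra1b had none, and no peak was of the promoter class. Adrb1 encodes the main cardiac β receptor. Its peak was intergenic and lay 4.29 kb upstream of the TSS, at 4.58-fold and a width of 218 bp (chromosome 1, 277533186 to 277533403, −log10 q of 3.60). By fold enrichment it stood at percentile 68.7 of the list and by −log10 q at percentile 44.0. On one side no peak was called for 177 kb, up to the promoter peak of Nhlrc2 at 5.11-fold, and on the other for 23.4 kb.

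Adra1a encodes the α1A receptor, which signals through Gq. Its peaks all lay in the intron of its transcript, which has 1 intron, 16.7, 20.1 and 25.5 kb downstream of the TSS. They had 4.81-fold (chromosome 15, 43315388 to 43315640), 3.66-fold (43318716 to 43319025) and 4.88-fold (43324230 to 43324434). All were short, between 205 and 310 bp, and the outer peaks exceeded the middle one. The cluster spanned 9.05 kb and was set apart by 152 kb without a peak on one side and 171 kb on the other. Adra1b encodes the α1B receptor, which also signals through Gq. Of its neighbours in the gene table, Ttc1 has 1 intron peak of 4.11-fold (chromosome 10, 29367398 to 29367654) and Atp6v1g1l1 has none. On one side of the Ttc1 peak no further peak was called for 388 kb. Where Adra1b lies in rn6 relative to that stretch was not examined.

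**Figure D2:**
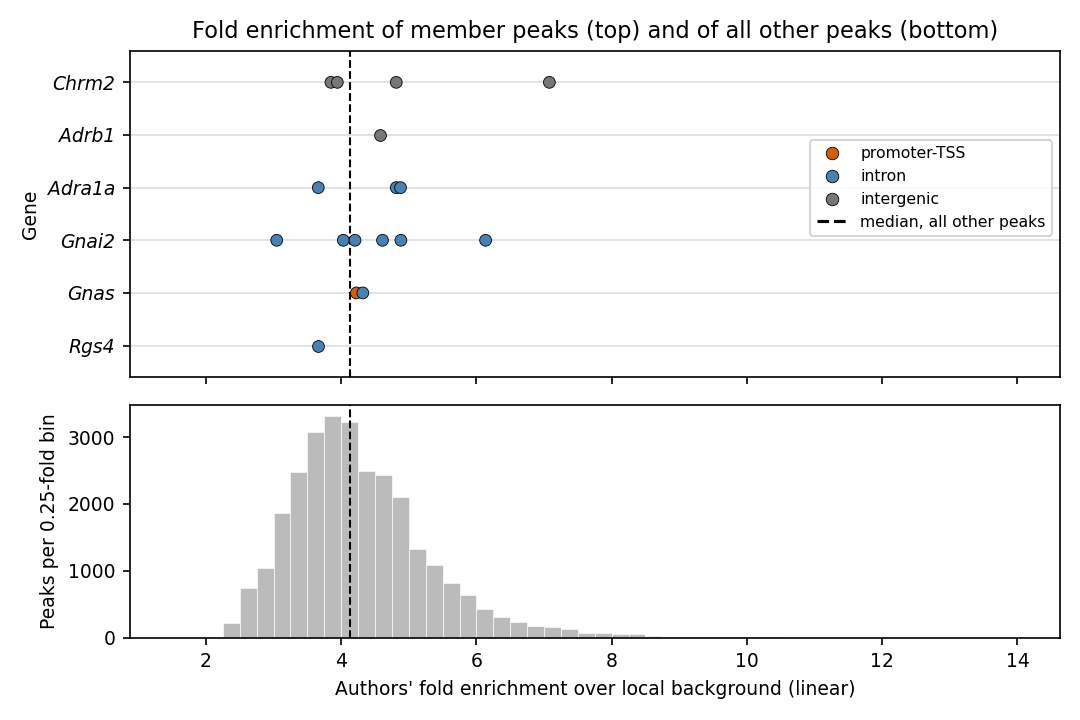
Authors' fold enrichment (x axis, linear) of each member peak by gene (top, colour by class) and of all other peaks as a histogram (bottom, y axis in peaks per bin), with the median of the other peaks as a dashed line. Of the 17 member peaks 11 lie above the list median of 4.13-fold, and those at 7.08-fold (Chrm2) and 6.14-fold (Gnai2) stand furthest to the right.

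The G protein genes held 8 of the 17 peaks, and Gnai2 held the most of any member. Gnai2 encodes an α subunit of the inhibitory G protein to which M2 receptors couple. Its 6 peaks all lay in intron 1 of its transcript, with centres between 1.25 and 10.8 kb downstream of the TSS, and spanned 10.9 kb. The strongest and widest was the one nearest the TSS, at 6.14-fold over 2258 bp (chromosome 8, 116388785 to 116391042), with a −log10 q of 10.8. It ranked 691 of 12575 intron peaks by fold enrichment, within the top 5.50%, and stood at percentile 98.8 of the list by width. Measured from its edge, at 116391042, and not its centre, this peak lay within 1000 bp of the TSS, at 116391158.

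The next strongest Gnai2 peak, at 4.88-fold over 1084 bp, lay 5.45 kb from the TSS (116385164 to 116386247). The remaining 4 were between 204 and 414 bp wide. They had 4.03-fold at 2.98 kb, 3.05-fold at 6.73 kb, 4.61-fold at 10.3 kb and 4.20-fold at 10.8 kb. The lowest of them, at percentile 7.67 of the list, was the weakest of all member peaks. Peaks of Gnai2 were therefore uneven within 1 intron and did not fall steadily with distance. At least 6 peaks were assigned to 1 of the 9 members, Gnai2, and to 4.06% of all protein-coding genes.

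The naming rule left out peaks that lie inside Gnai2. The annotation gives a peak the name of the nearest TSS, and 2 peaks placed in intron 4 of the same Gnai2 transcript were named for the neighbouring semaphorin gene Sema3b. They had 4.76-fold over 2059 bp (chromosome 8, 116374456 to 116376514) and 3.44-fold over 731 bp (116373414 to 116374144), 15.7 and 17.4 kb from the Gnai2 TSS. With them Gnai2 would hold 8 peaks and the members 19. No peak of another name lay in the transcripts the annotation uses for the start sites of Chrm2, Adrb1, Adra1a, Gnas or Rgs4. The transcripts of the members without a peak were not examined. This count was made after the data were seen.

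**Figure D3:**
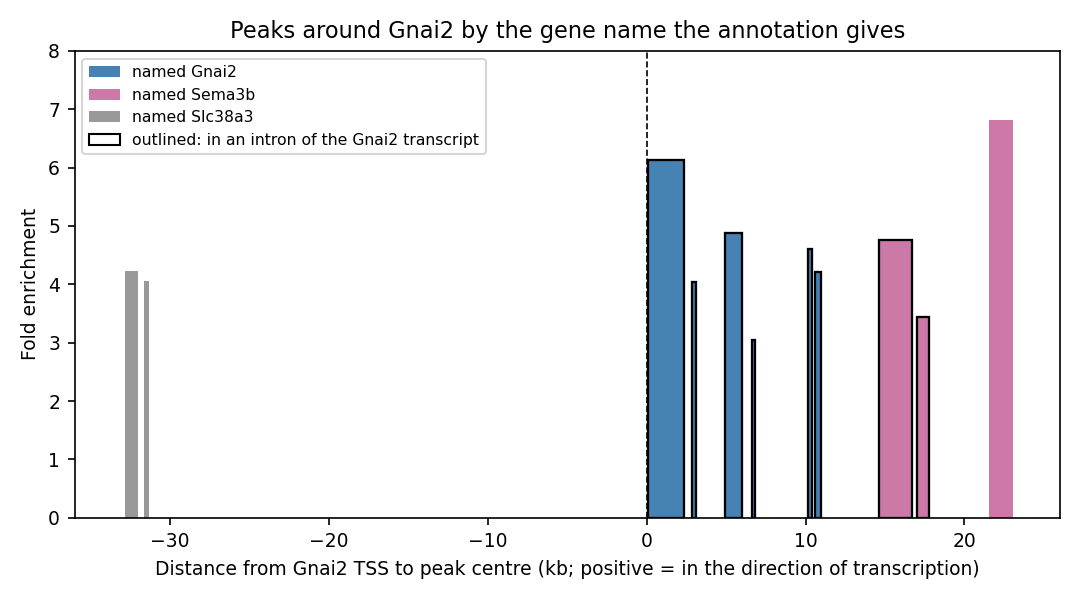
Fold enrichment (y axis, bars start at 0) of each peak around Gnai2 against the distance of its centre from the Gnai2 TSS (kb, x axis), with bar width equal to peak width and colour giving the assigned gene. Outlined bars lie in introns of the Gnai2 transcript, and 2 of them, at 15.7 and 17.4 kb, carry the name Sema3b.

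Gnas, which encodes the stimulatory G protein α subunit downstream of β receptors, was the 1 member with a promoter-class peak. That peak had 4.23-fold over 381 bp and lay 414 bp upstream of the TSS (chromosome 3, 172419987 to 172420367, −log10 q of 3.99). It was ordinary for its class, at rank 1229 of 2807 promoter peaks by fold enrichment. The second Gnas peak, 4.32-fold over 654 bp, lay 1055 bp downstream in intron 3 of a transcript with 14 introns (172421320 to 172421973), 952 bp from the first. The pair was isolated, with no peak for 1019 kb on one side and 152 kb on the other. Which of the 3 RefSeq start sites shown above corresponds to this TSS was not examined, because the builds differ.

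Rgs4 encodes a regulator of G protein signalling that speeds the shut-off of Gi and Gq α subunits. It had a single peak of 3.66-fold over 308 bp in intron 1, centred 333 bp downstream of the TSS (chromosome 13, 88060622 to 88060929). At percentile 28.9 by fold enrichment and 24.4 by −log10 q, it was weak within the list. The nearest other peaks were 175 and 324 kb away. Its gene table neighbours Rgs5 and Ccdc190 had no peak. A TSS lay within 1000 bp of a peak centre at 2 members (22.2%), Gnas and Rgs4, against 16.7% of all protein-coding genes. Within 3000 bp it did so at 3 members (33.3%), with Gnai2 added, against 18.4%. These counts use peak centres, and the strongest Gnai2 peak reached within 1000 bp of its TSS by its edge.

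Differences between weak peaks are limited by the grain of the caller's values. The 28706 peaks hold 1838 distinct pairs of fold enrichment and −log10 q. The Chrm2 peak at 15.0 kb and the Adra1a peak at 16.7 kb have the same pair, 4.81-fold and 4.36, which 180 peaks of the list share. The middle Adra1a peak and the Rgs4 peak share 3.66-fold and 2.79 with each other, as do 565 peaks in all. The order of such peaks by strength is therefore not resolved. The pair of the strongest Chrm2 peak occurs in 14 peaks and that of the strongest Gnai2 peak in 30. Some weaker member peaks share their pair with fewer, such as the Gnai2 peak at 4.61-fold, whose pair occurs in 4. The number of ties therefore does not follow strength alone. Fold enrichment of at least 6 was reached at 2 of the 9 members (22.2%), Chrm2 and Gnai2, against 4.10% of all protein-coding genes. The same 2 genes (22.2%) had a peak with −log10 q of at least 5, against 14.1% of all protein-coding genes. A peak of at least 4-fold was present at 5 members (55.6%), all those with a peak except Rgs4, against 19.3% of all protein-coding genes.

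Beyond the members, 79 other genes of the same pathway were counted by role. Any peak was present at 35 (44.3%) and a promoter peak at 14 (17.7%), beside the 26.5% and 9.68% of all protein-coding genes. The other acetylcholine receptors had no peak at any of 8 genes, among them Chrm1, Chrm4 and Chrm5. Of the 6 other adrenergic receptors 2 had peaks. Adra2b, an α2 receptor gene, had 8 intergenic peaks between 16.5 and 67.7 kb from its TSS, up to 5.92-fold. Adra1d, Adra2a and Adra2c had none.

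Of the 10 other G protein α subunits 6 (60%) had a peak and 3 (30%) a promoter peak. The shares of all protein-coding genes are 26.5% and 9.68%. Gnaq, the Gq subunit downstream of α1 and M3 receptors, had 9 peaks up to 4.84-fold, Gnai1 had 1 of 4.81-fold and Gnao1 had 1 of 4.67-fold, while Gna11, Gna14 and Gnal had none. Of the β and γ subunits 6 of 11 (54.5%) had a peak, led by Gng7 at 7.67-fold, Gnb2 at 5.91-fold and Gng11 at 5.26-fold. Gnb3, Gnb4 and Gnb5 had none. The other RGS genes had a peak at 6 of 15 (40%) and a promoter peak at none, beside the same 26.5% and 9.68%. Rgs16 reached 7.04-fold in an intron peak 465 bp downstream of its TSS, Rgs3 6.45-fold and Rgs20 5.41-fold, and Rgs1, Rgs10 and Rgs14 had none.

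Receptor kinases and arrestins, which switch activated receptors off, had a promoter peak at all 4 of the 7 genes with any peak. This was 57.1% of the list, against 9.68% of all protein-coding genes. Grk5, a receptor kinase, reached 8.37-fold in an intron peak 53.1 kb downstream of its TSS, with 3.26-fold at its promoter. Grk6 reached 6.20-fold in an intron peak 5.33 kb downstream of its TSS, with 3.04-fold at its promoter. Grk2, the main cardiac β receptor kinase, reached 4.98-fold in an intergenic peak 10.8 kb upstream, with 4.32-fold at its promoter. The median over all promoter peaks was 4.09-fold. Of the promoter peaks in this role only that of Grk2 exceeded it, and none reached a −log10 q of 5. Arrb2, Grk3 and Grk4 had no peak. Effectors had a peak at 9 of 12 genes (75%), against 26.5% of all protein-coding genes. These were led by the phospholipase gene Plcb4 at 7.78-fold and the cardiac adenylyl cyclase genes Adcy6 at 6.84-fold, at its promoter, and Adcy5 at 5.85-fold. Kcnj3, a subunit of the potassium channel that M2 receptors open, had no peak, nor did Hcn4 or Prkaca. Kcnj5, the partner subunit, had 2 intron peaks of 4.79 and 5.51-fold. Genes of transmitter synthesis, transport and breakdown had a peak at 2 of 10 (20%), against the same 26.5%. They were led by Dbh at 5.41-fold, and Ache, Bche and Chat had none.

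**Figure D4:**
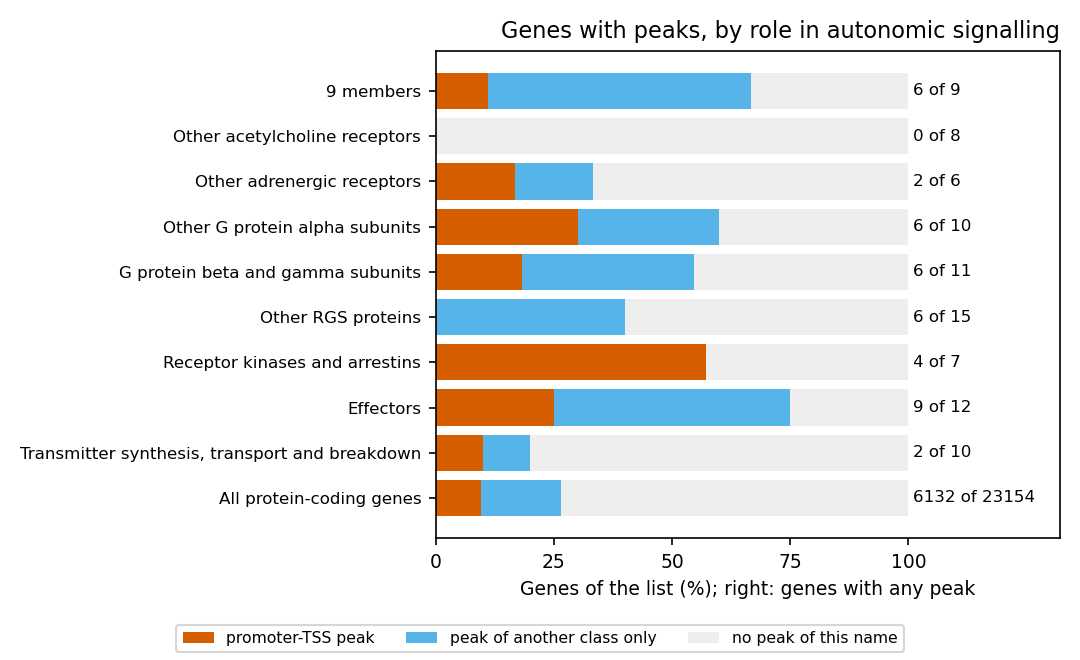
Percentage of genes (x axis) with a promoter-class peak, with a peak of another class and with no peak of their name, for the 9 members, for the other pathway genes by role and for all protein-coding genes (y axis), with the number of genes with any peak at the right. Effectors have the highest share among the other roles, 9 of 12, and the other acetylcholine receptors have 0 of 8.

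As a check of the tissue, marker genes were counted beside the 26.5% of all protein-coding genes with any peak. Cardiomyocyte markers had a peak at 6 of 9 (66.7%), led by Pln at 7.04-fold and Myh7 at 5.38-fold, while Myh6, Ryr2 and Ttn had none. Endothelial markers had 6 of 8 (75%), led by Kdr at 7.61-fold and Tek at 6.90-fold, with none at Emcn or Pecam1. This Kdr peak lay between genes, 70.6 kb downstream of the TSS, and the Tek peak in an intron, 7.07 kb downstream. Smooth muscle and pericyte markers had 3 of 8 (37.5%), led by Abcc9 at 5.18-fold and Acta2 at 5.08-fold, with none at Cnn1, Kcnj8, Myh11, Rgs5 or Tagln. Fibroblast markers had 1 of 6 (16.7%), Tcf21 at 4.58-fold, with none at Col1a1, Col1a2, Dcn, Lum or Pdgfra. Immune markers also had 1 of 6 (16.7%), Csf1r at 3.70-fold, with none at Adgre1, C1qa, Cd3e, Cd68 or Ptprc. Neuron and glia markers had 2 of 8 (25%), among them Snap25 at 3.82-fold in an intron peak 61.3 kb from its TSS, with none at Elavl4, Hand2, S100b, Sox10 or Stmn2. The neuron and glia share was close to that of all genes. The fibroblast and immune shares were lower, but 1 further gene with a peak would lift either above it, and each list is short. The tissue holds several cell types, and which of them gave a member's peak was not tested.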

How the data were processed

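The samples are a ChIP library and an input library of rat myocardium, of which the ChIP library gave values. The submitters' processing notes name build rn6 and list MACS2 and HOMER, besides FastQC, Bowtie2, deepTools, SAMtools and Trim Galore. Their versions and order are not given in the sources used here, nor is the use of the input as background. A path in the deposited annotation names a call at q 0.05, per the file headers. The authors deposited a signal value for each peak, a ratio read here as fold enrichment because MACS2 fills that column with its fold over local background. Columns of −log10 q and −log10 p stand beside it, per the file headers. A score column that the authors deposited holds −log10 q scaled and cut to a whole number, and was not used further. Peak and annotation tables were joined by peak name, with coordinates 1-based. Distances run from the peak's centre to the nearest TSS, whose gene names the peak. Depth is unknown, and the number of reads limits the precision of every value.

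Members were matched by exact symbol with pandas 2.3.3 under Python 3.11.15. The background is the protein-coding genes of a gene table of GRCr8, used for names and gene order, with promoter sequences from RefSeq of that build. Percentiles count ties at their middle. Named are all members, and of each other role the 3 strongest genes and the first 3 without a peak by alphabet; of each marker list, the 2 strongest and all without a peak. Some genes that this rule names are not reported here, though the counts include them. Members and lists were chosen with earlier results of these data known. The counting steps were tested on simulated data.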

Additional observations from a re-analysis of the deposited data

How the results depend on the processing

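The ChIP and input libraries share 1 number, but no paired analysis was possible because the input library has no values here. Of 40 alternatives, 31 kept the value and 9 did not. A count was kept if within 1.5 times of the reported one. A median was kept if within the binomial interval of the member peaks' median (3.94 to 4.81). That interval treats the 17 peaks as independent, which peaks of 1 library are not, so it is no measure of error. No member peak lay beyond 43.7 kb of its TSS, so the limit of 100 kb could not change the member values. Without intergenic peaks, any peak remained at 4 of the 6 members, which counts as kept. With peaks of −log10 q of at least 5, any peak remained at 2 members (Chrm2 and Gnai2), 4 member peaks remained with a median of 5.51-fold, 0 members had a promoter peak, and 5 pathway genes did. Promoter peaks were at 8 pathway genes with fold enrichment of at least 4. Counting as promoter peaks all those centred at most 1000 bp from a TSS gave 2 members, and at most 3000 bp gave 3. With peaks of a gene less than 1000 bp apart counted as 1, the members had 11. Adding the peaks inside the Gnai2 transcript, or those of Mir490, gave 19 peaks each, 2 alternatives chosen after seeing the data. What depth limits is which weak peaks were called, and it is unknown here.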

Other observations

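Several pathway genes carried more peaks than any member. They were picked out after their values were seen. Plcb4, a phospholipase gene of Gq signalling, had 36 peaks, of which 31 lay between genes, and the strongest, at 7.78-fold, stood 248 kb upstream of its TSS (chromosome 3, 128508779 to 128509419). Rgs3 had 22, of which 20 lay in introns, and Adcy5 had 15, of which 14 did. Grk5 had 10 peaks covering 9404 bp, against 4403 bp for the 6 of Gnai2 and 2036 bp for the 4 of Chrm2. At least 4 peaks were assigned to 6.68% of protein-coding genes.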
